A study of Homo sapiens with 16 samples.

Results

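The breadth of histone H3 trimethylated at lysine 4 (H3K4me3) was compared between MDA-MB-231 and MCF-10A at the regions that both lines share. The members were chosen by position: overlapping peaks of the 4 H3K4me3 lists on the 22 autosomes were joined into regions (an overlap of 1 bp sufficed), and a region counted as shared when all 4 lists had a peak in it. Of 17386 merged regions, 11967 (68.8%) were shared, and these came from 4 of the 16 samples of the series. MDA-MB-231, labelled as derived from a metastatic site, is an established human breast cancer line of mesenchymal type. MCF-10A, labelled as luminal ductal cells, is an established non-tumorigenic human breast epithelial line. Each line was represented by 2 libraries that the labels call biological replicates, made by chromatin immunoprecipitation and sequencing (ChIP-seq) from subconfluent cells of a laboratory stock. MCF-10A was grown with EGF, insulin, cholera toxin and hydrocortisone in a DMEM/F12 medium without phenol red, and the medium of MDA-MB-231 is given only by a citation. The line, its culture medium and its genome copy number cannot be told apart in this design. The other lists hold H3K27me3 and H3K9me2, and the 4 inputs had no peak list here.

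H3K4me3 is placed on the nucleosomes around transcription start sites by SET1 and MLL methyltransferase complexes, which are drawn in part by unmethylated CpG-rich DNA. At most active genes the mark forms a compact domain at the start, while genes that define a cell's identity often carry a broad domain that reaches into the gene body. H3K27me3, the mark of Polycomb repression, can lie beside H3K4me3 on poised promoters or cover promoters that lack it.

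Promoters from both sides of the comparison are shown here because the results turn on them. Each sequence is the 250 bases before the gene start in the RefSeq promoter table for GRCh38.p14, read 5′ to 3′ on the gene's own strand, with CpG dinucleotides in capitals. AXL (chr19:41218973-41219222, plus strand) and EDIL3 (chr5:84384881-84385130, minus strand) had a region in MDA-MB-231 only, KRT5 (chr12:52520395-52520644, minus strand) in MCF-10A only, IGFBP4 (chr17:40443200-40443449, plus strand) had a wider region in MDA-MB-231, and CLDN1 (chr3:190322447-190322696, minus strand) a narrower one.
AXL: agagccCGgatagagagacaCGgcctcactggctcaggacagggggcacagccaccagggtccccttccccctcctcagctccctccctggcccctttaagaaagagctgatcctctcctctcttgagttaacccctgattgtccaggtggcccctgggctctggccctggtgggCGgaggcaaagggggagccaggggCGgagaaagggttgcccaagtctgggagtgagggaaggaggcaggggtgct
EDIL3: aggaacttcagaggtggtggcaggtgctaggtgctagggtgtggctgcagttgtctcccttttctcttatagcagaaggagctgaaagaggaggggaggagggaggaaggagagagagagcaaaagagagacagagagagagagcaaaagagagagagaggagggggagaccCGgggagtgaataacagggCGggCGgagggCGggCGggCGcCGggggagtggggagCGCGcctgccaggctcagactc
KRT5: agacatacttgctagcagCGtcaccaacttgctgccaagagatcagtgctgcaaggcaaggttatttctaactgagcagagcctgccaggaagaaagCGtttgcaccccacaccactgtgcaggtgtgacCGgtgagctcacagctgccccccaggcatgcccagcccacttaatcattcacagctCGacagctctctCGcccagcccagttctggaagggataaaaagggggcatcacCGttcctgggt
IGFBP4: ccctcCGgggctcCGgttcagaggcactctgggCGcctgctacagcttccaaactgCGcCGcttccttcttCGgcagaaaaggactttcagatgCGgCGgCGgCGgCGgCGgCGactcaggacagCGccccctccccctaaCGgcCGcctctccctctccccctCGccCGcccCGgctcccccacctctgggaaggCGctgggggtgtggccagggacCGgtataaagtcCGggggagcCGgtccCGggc
CLDN1: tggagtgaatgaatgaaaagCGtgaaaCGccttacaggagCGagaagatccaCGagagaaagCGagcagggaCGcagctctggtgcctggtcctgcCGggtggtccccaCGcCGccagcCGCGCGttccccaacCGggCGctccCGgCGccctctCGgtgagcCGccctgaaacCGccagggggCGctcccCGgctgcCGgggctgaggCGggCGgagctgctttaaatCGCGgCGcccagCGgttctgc
The motif CG reads the same on both strands. It occurred 4 times before AXL, 9 times before EDIL3, 6 times before KRT5, 24 times before IGFBP4 and 28 times before CLDN1. The median over the 35116 promoters of the table was 11, with quartiles of 3 and 23. Of all promoters in the table, 70.7% held at least as many CG as AXL and 15.9% at least as many as CLDN1. Among further starts in shared regions, CG occurred 8 times before VIM and 4 times before ELF3. The VIM region was wider in MDA-MB-231 and the ELF3 region narrower, so these counts did not sort the promoters by class.

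The 4 lists were alike in size. MDA-MB-231 had 16008 and 15642 autosomal peaks covering 20.97 and 21.04 Mb, against 15015 and 16174 peaks covering 19.42 and 21.31 Mb in MCF-10A. The lists hold no read counts, so the depth behind a peak is unknown, and a width follows both the extent of the mark and the strength of the library. Positions are given on hg19. A region is named by a gene only where the gene's start, placed by hand on hg19 without an annotation of that build, lies in it. A start in a shared region need not lie in a peak of every library. Known markers of each line fitted the labels in part. Of the epithelial and basal markers, CDH1 and KRT5 had a region in MCF-10A only, EPCAM, ITGB4 and LAMB3 had one in all 4 lists, and KRT14 and TP63 had none. Of the mesenchymal and invasion markers, AXL had a region in MDA-MB-231 only, VIM, ZEB1, FN1 and CAV1 had one in all 4 lists, and SPARC and MMP1 had none. The mesenchymal genes TWIST1 and CDH2 had a region in MCF-10A only, and the luminal keratin gene KRT19 had one in MDA-MB-231 only. None of 7 markers of liver, pancreas, blood, glia and heart had a region at its start.

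Typical widths did not separate the lines. The median shared region covered 1506 and 1511 bp in the MDA-MB-231 libraries, against 1430 and 1523 bp in the MCF-10A libraries. The means were 1508.5 ± 3.54 bp in MDA-MB-231 and 1476.5 ± 65.8 bp in MCF-10A (SD, n = 2 each), and the MDA-MB-231 values lay between the MCF-10A values (two-sided exact permutation p = 1, where 0.33 is the smallest that 2 against 2 allows). The median log2 ratio of MDA-MB-231 over MCF-10A across regions was 0.04. For a single region, the 2 replicates of a line differed by a median of 0.148 in both lines on the log2 scale, and the means of the lines by 0.167.

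Against that background a minority of regions changed in width. With limma on log2 covered bases, 506 of the 11967 regions (4.23%) were wider in MDA-MB-231 and 337 (2.82%) were narrower, at a Benjamini-Hochberg adjusted p under 0.05. At an unadjusted p under 0.05 there were 2511. The wider regions covered a median of 2205 bp in MDA-MB-231 and 1273 bp in MCF-10A, with a median log2 ratio of 0.77 and a range of 0.34 to 2.47. The narrower regions covered a median of 1024 bp in MDA-MB-231 and 1969.5 bp in MCF-10A, with a median log2 ratio of -0.93 and a range of -3.00 to -0.35. A change of at least 2-fold was reached by 153 of the wider and 140 of the narrower regions. In every called region both libraries of one line lay above both of the other, and over all shared regions this held with MDA-MB-231 higher in 30.2% and with MDA-MB-231 lower in 20.8%. The counts moved by over 1.5 times in some settings: without the trend of variance on width there were 236 wider and 202 narrower regions, and with only peaks scoring at least 100 there were 317 and 220. Leaving out MCF-10A replicate 2 gave 844 wider regions, and leaving out MDA-MB-231 replicate 2 gave 510 narrower ones.

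**Figure D1:**
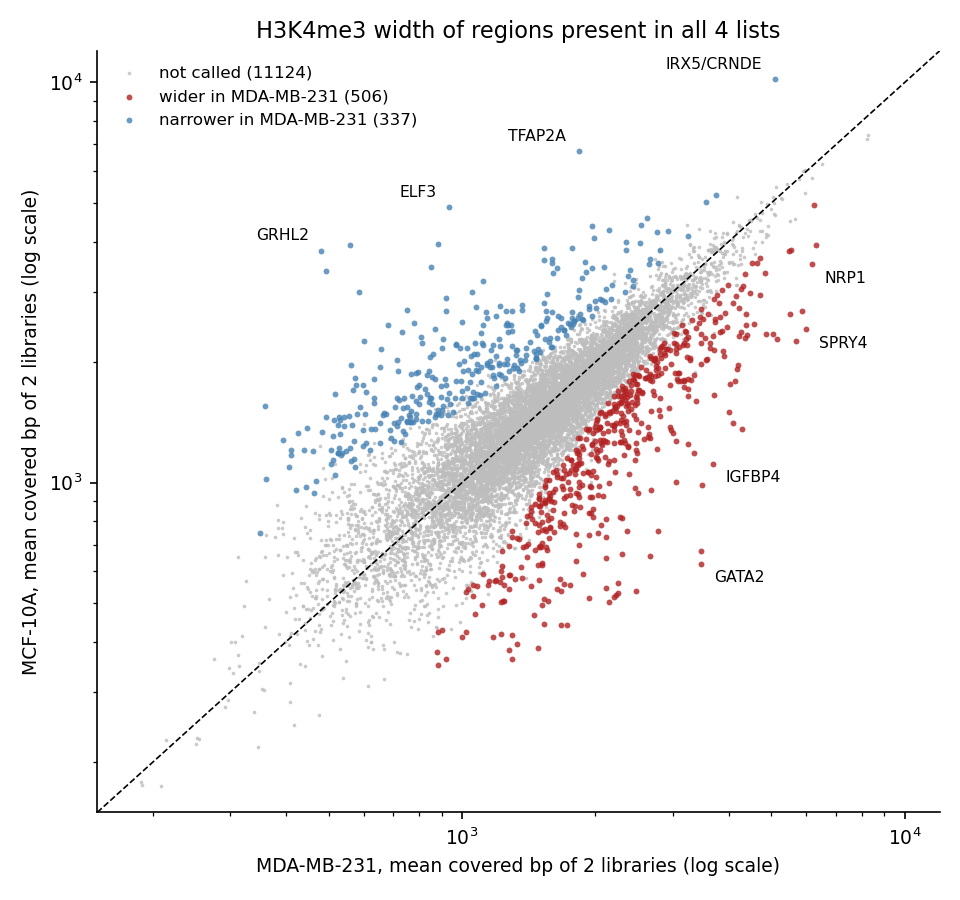
Covered width in bp of each of the 11967 shared regions, as the mean of 2 libraries in MDA-MB-231 (x axis) and in MCF-10A (y axis), both on log scales, with the diagonal of equal width dashed. The 506 regions wider in MDA-MB-231 lie below the diagonal and the 337 narrower ones above it, and most regions lie close to it.

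Wide domains were called more often than narrow ones, and more often as wider than as narrower. Among the 2993 regions with the lowest mean width (up to 1127 bp), 2.57% were wider in MDA-MB-231 and 2.61% narrower. Among the 2991 with the highest mean width (from 1922 bp), 6.95% were wider and 3.08% narrower. In the 2 groups of like size between them, 3.78% and 3.61% were wider, so the share was highest in the widest group. A fixed number of base pairs is a smaller log2 step in a wide region. The standard error of the log2 ratio was also smaller at some wide regions, 0.08 at KLF6 against 0.20 at the shorter PKP3 region. The power to call a step was not tested by width, and these groups were not recounted after centring each library.

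The 10 regions that gained most in MDA-MB-231 included SPRY4, ERRFI1 and IRS1, which act in or on growth factor receptor signalling. SPRY4, an inhibitor of receptor tyrosine kinase signalling, covered 6009 and 5986 bp in MDA-MB-231, against 2162 and 2681 bp in MCF-10A (chr5:141700214-141706317; log2 ratio 1.32 ± 0.11 SE, adjusted p = 0.000127). ERRFI1, a feedback inhibitor of the EGF receptor, covered 5539 and 5469 bp in MDA-MB-231, against 2543 and 2748 bp in MCF-10A (chr1:8081905-8087640; log2 ratio 1.06, adjusted p = 0.000121). IRS1, the adaptor of insulin and IGF receptors, covered 5806 and 5549 bp in MDA-MB-231, against 2182 and 2327 bp in MCF-10A (chr2:227659154-227665313; log2 ratio 1.33, adjusted p = 3.68e-05). At all 3 genes the MDA-MB-231 libraries covered more than 2 times the mean bases of the MCF-10A libraries. The lines did not overlap, but the regions were chosen for that gap. The peaks of MDA-MB-231 replicate 1 bridge the IRS1 domain: without that library it fell into separate regions, and the one at the start had a log2 ratio of 0.16 (adjusted p = 0.575).

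IGFBP4, a secreted binding protein that limits IGF action, covered 3804 and 3587 bp in MDA-MB-231, against 1106 and 1127 bp in MCF-10A (chr17:38598953-38602763; log2 ratio 1.73, adjusted p = 2.18e-05). FOSL1, a subunit of the AP-1 transcription factor, covered 4018 and 4177 bp in MDA-MB-231, against 1474 and 1353 bp in MCF-10A (chr11:65663951-65668186; log2 ratio 1.54, adjusted p = 3.17e-05). KLF6, a zinc finger transcription factor, covered 5192 and 5123 bp in MDA-MB-231, against 2306 and 2267 bp in MCF-10A (chr10:3822352-3827609; log2 ratio 1.17, adjusted p = 6.28e-05). These 3 domains were single peaks in every library, so no joining of peaks entered their widths. NRP1, a co-receptor for semaphorins and VEGF, had the widest domain of this group, with 6248 and 6126 bp in MDA-MB-231 and 3472 and 3548 bp in MCF-10A (chr10:33620372-33626650; log2 ratio 0.82, adjusted p = 0.000446).

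Small MCF-10A peaks faced broad MDA-MB-231 domains at 2 further starts. GATA2, a transcription factor of blood and endothelial development, covered 3461 and 3489 bp in MDA-MB-231, against 582 and 674 bp in MCF-10A (chr3:128205551-128209294; log2 ratio 2.47 ± 0.14 SE, adjusted p = 2.18e-05). Its MCF-10A peaks lay downstream of the start and did not touch it, and both MCF-10A H3K27me3 lists had a peak over the region. THBD, the thrombin receptor thrombomodulin, covered 3252 and 3673 bp in MDA-MB-231, against 689 and 664 bp in MCF-10A (chr20:23028946-23032645; log2 ratio 2.35, adjusted p = 2.18e-05). The MCF-10A peaks at THBD ended upstream of the placed start (downstream reach -384 and -433 bp) and did not touch it. Without MDA-MB-231 replicate 2 the 3 THBD peaks of replicate 1 were separate regions, and the one shared with MCF-10A had a log2 ratio of 0.01 (adjusted p = 0.993). The last of the 10 regions held no placed gene start, at chr13:109917498-109922102, with 4605 and 3997 bp in MDA-MB-231 and 1176 and 1541 bp in MCF-10A (log2 ratio 1.67, adjusted p = 0.000121).

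The 10 regions that lost most in MDA-MB-231 included the epithelial transcription factors TFAP2A, ELF3 and GRHL2. TFAP2A, the AP-2 alpha factor of surface ectoderm and breast epithelium, covered 1864 and 1804 bp in MDA-MB-231, against 6389 and 7070 bp in MCF-10A (chr6:10409505-10416717; log2 ratio -1.87 ± 0.09 SE, adjusted p = 1.51e-05). ELF3, an epithelium-specific ETS factor, covered 757 and 1116 bp in MDA-MB-231, against 4545 and 5199 bp in MCF-10A (chr1:201978927-201984523; log2 ratio -2.40, adjusted p = 5.49e-05). GRHL2, which maintains epithelial junctions, covered 573 and 390 bp in MDA-MB-231, against 3621 and 3975 bp in MCF-10A (chr8:102503479-102507537; log2 ratio -3.00, adjusted p = 3.68e-05). The short MDA-MB-231 peaks covered the start at TFAP2A. Their upstream reach was -50 and -4 bp at ELF3 and -1228 and -1058 bp at GRHL2, where a negative value means that the peak began downstream of the placed start. The lowest log2 ratio of all called regions was that of GRHL2.

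CLDN1, a claudin of tight junctions, covered 514 and 654 bp in MDA-MB-231, against 2707 and 3274 bp in MCF-10A (chr3:190037056-190040518; log2 ratio -2.36, adjusted p = 0.000112). LMX1B, a LIM homeodomain factor of limb and neurons, covered 721 and 395 bp in MDA-MB-231, against 3959 and 3906 bp in MCF-10A (chr9:129374420-129378391; log2 ratio -2.88, adjusted p = 0.000134). Both MDA-MB-231 H3K27me3 lists had a peak over the LMX1B region, and neither line had one in both lists over CLDN1.

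The widest domain of the 20 belonged to the divergent pair IRX5, an Iroquois homeodomain factor, and CRNDE, a long non-coding RNA. It covered 4933 and 5250 bp in MDA-MB-231, against 10251 and 10103 bp in MCF-10A (chr16:54960888-54971633; log2 ratio -1.0, adjusted p = 0.000289). AVPI1 covered 895 and 874 bp in MDA-MB-231, against 3799 and 4088 bp in MCF-10A (chr10:99442937-99447107; log2 ratio -2.16, adjusted p = 1.51e-05). PLXDC2, a transmembrane protein with a plexin domain, covered 490 and 496 bp in MDA-MB-231, against 3157 and 3588 bp in MCF-10A (chr10:20104202-20107872; log2 ratio -2.77, adjusted p = 2.18e-05). In each of these the covered widths were close between replicates and far apart between the lines, the gap for which the regions were chosen. The positions were not alike at PLXDC2, where the 2 MDA-MB-231 peaks did not overlap. That of replicate 1 lay downstream of the placed start (upstream reach -145 bp) and that of replicate 2 upstream of it (downstream reach -88 bp).

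**Figure D2:**
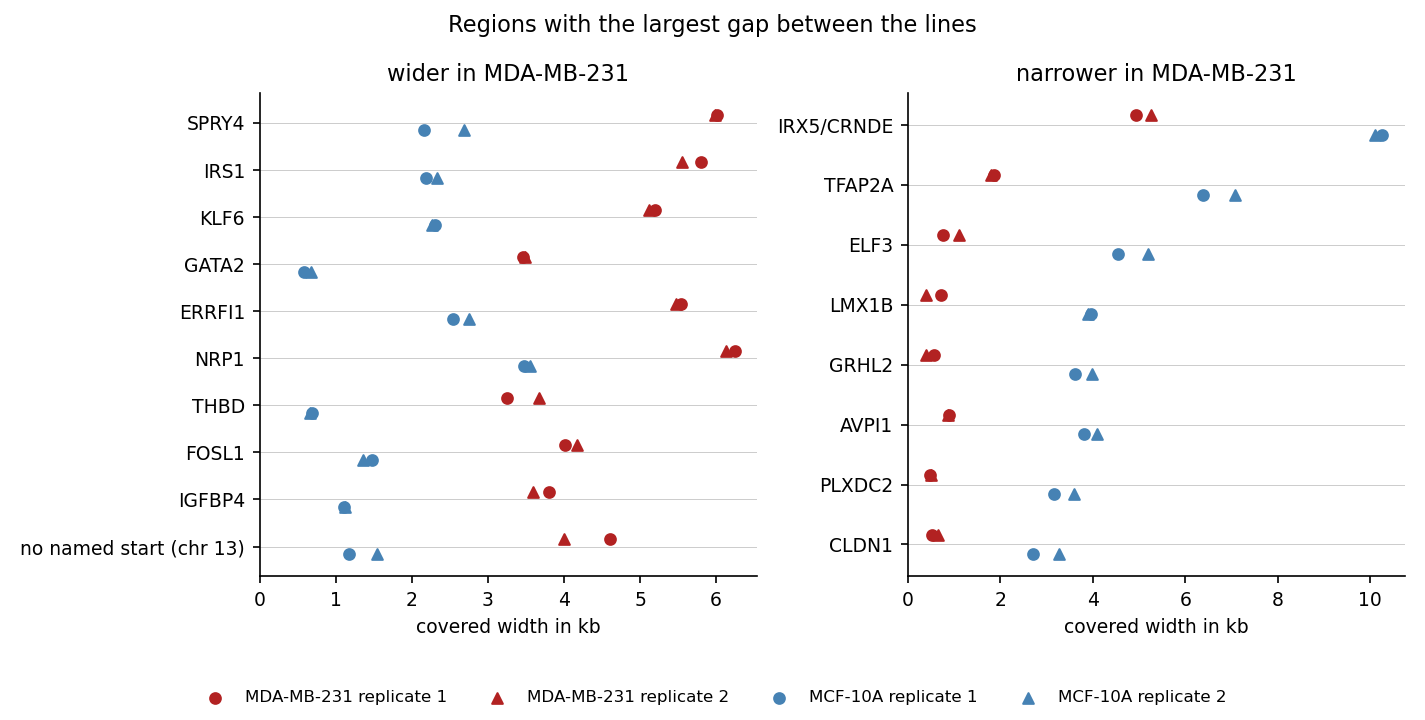
Covered width in kb, by library, of 10 wider and 8 narrower regions among those with the largest gap between the lines; red marks are MDA-MB-231, blue marks MCF-10A, circles replicate 1 and triangles replicate 2. The widths of the lines do not overlap at any of these regions, which were chosen for that gap, and the MDA-MB-231 domains on the right are mostly under 2 kb.

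Most of these changes lay on the side of the gene body. At KLF6 the mean edge in MDA-MB-231 reached 2908 bp further downstream of the start than in MCF-10A, and its upstream edge differed by -37 bp. At IRS1 the downstream reach differed by 3804 bp and the upstream reach by -16.5 bp, measured to the outermost edge. MDA-MB-231 had 3 and 4 separate peaks there, and the domain fell into separate regions without its replicate 1, as given above. Of the 9 wider regions in this set with a gene start, the larger gain was downstream in 8, with a median gain of 2538.5 bp downstream and 372 bp upstream. GATA2 was the exception, with 2836 bp upstream and 31 bp downstream. Among 9 of the narrower regions, leaving out the divergent pair, the larger loss was downstream in 7, and the median difference in reach was -2400.5 bp downstream and -465 bp upstream. At CLDN1, which holds that downstream median, the upstream reach differed by -58 bp.

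**Figure D3:**
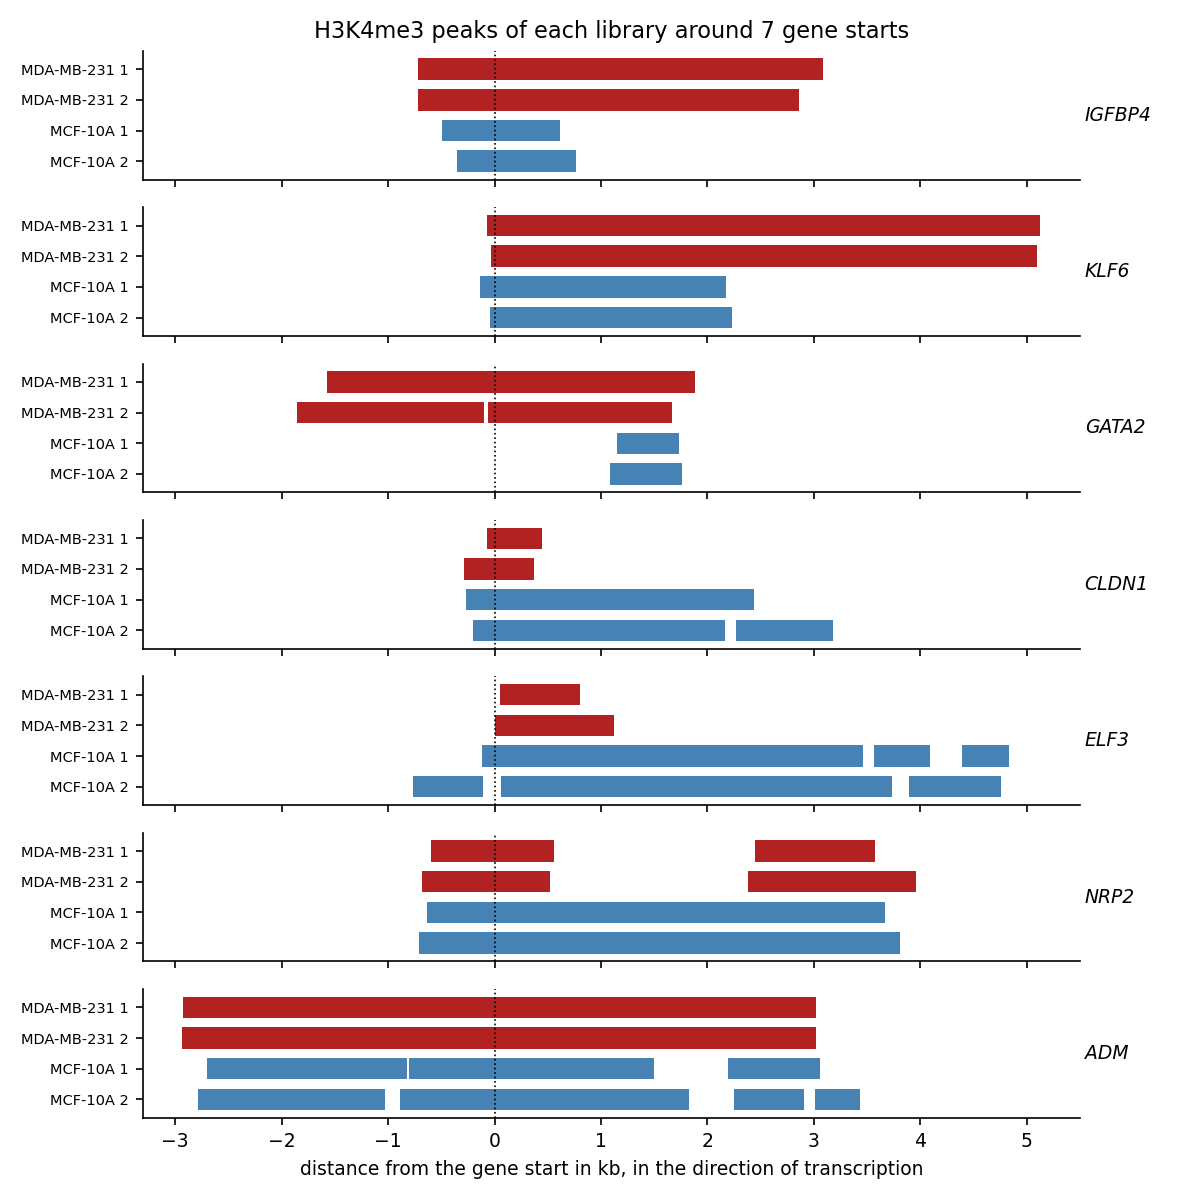
H3K4me3 peaks of the 4 libraries around 7 gene starts (dotted line), as distance from the start in kb with transcription running to the right; red bars are MDA-MB-231 and blue bars MCF-10A. IGFBP4 and KLF6 are extended downstream in MDA-MB-231, CLDN1 and ELF3 are short there, and NRP2 is interrupted in MDA-MB-231 while ADM is interrupted in MCF-10A.

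Edges could be compared directly in the 9064 shared regions (75.7%) that were 1 peak in all 4 lists. The same edge lay a median of 98 bp apart between the MDA-MB-231 replicates and 90 bp between the MCF-10A replicates, and the line means were 96.5 bp apart. An edge was counted as moved where both libraries of one line lay at least 100 bp further out than both of the other. Of 291 wider regions of this kind, 123 (42.3%) had both edges further out in MDA-MB-231 and 168 had one. Of 210 narrower regions, 84 (40.0%) had both edges further out in MCF-10A and 126 had one. Changes on a single side were thus the more frequent form in both directions, and over all 9064 regions the MDA-MB-231 edge was further out on both sides in 1.96% and on one side in 19.1%.

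Splitting of a domain into several peaks often differed between replicates. A region was counted as split in a line when both of its lists had at least 2 peaks there and both lists of the other line had 1. By that count 204 regions (1.7%) were split in MDA-MB-231 and 1 peak in MCF-10A. In turn 157 (1.31%) were split in MCF-10A and 1 peak in MDA-MB-231. The count does not ask that the single peak of the other line covers the gap, so added neighbouring peaks can enter it. IRS1 and THBD, wider in MDA-MB-231 with shorter MCF-10A peaks, met it. Of the 204 regions, 30 were wider in MDA-MB-231 and 8 narrower, and of the 157, 13 were wider and 13 narrower. Of the regions with at least 2 peaks in either MDA-MB-231 list, 558 of 1985 (28.1%) had them in both, against 507 of 1865 (27.2%) in MCF-10A. The uncovered stretch was short, with a median of 61.5 bp in MDA-MB-231 splits and 59 bp in MCF-10A splits, and at least 200 bp in 11 of the MDA-MB-231 and 14 of the MCF-10A splits. The counts carry no test. With only peaks scoring at least 100, 132 regions were split in MDA-MB-231, and with one library of a line left out the counts ran up to 597 and 513.

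NRP2, a co-receptor for semaphorins and VEGF-C, had by far the longest interruption. Its start kept a peak in all 4 lists, but 1887 and 1858 bp inside the domain were without a peak in the MDA-MB-231 libraries and covered in both MCF-10A libraries (chr2:206546518-206551180). The covered width was 2286 and 2784 bp in MDA-MB-231, against 4302 and 4516 bp in MCF-10A (log2 ratio -0.81, adjusted p = 0.00174). Measured from the first to the last covered base, the ratio was 0.00 (adjusted p = 0.993), so the outer edges lay alike in both lines and the uncovered middle made the difference. Further splits in MDA-MB-231 lay at RTKN with 417 and 502 bp uncovered, at PER3, a circadian clock gene, with 395 and 397 bp, at ZCCHC14 with 328 and 651 bp, and at chr19:47730576-47735150 with 495 and 613 bp. At PER3 the peak of MCF-10A replicate 1 covered only 546 bp and ended upstream of the placed start (downstream reach -462 bp). It did not span the stretch uncovered in MDA-MB-231, while the 1481 bp peak of MCF-10A replicate 2 did. PER3 was thus an interruption against MCF-10A replicate 2 only. RTKN and ZCCHC14 were also narrower (log2 ratios of -0.45 and -0.81, adjusted p = 0.0316 and 0.00327). That of RTKN was lost without MCF-10A replicate 1 (-0.36, adjusted p = 0.179), and both were lost with the span or without the variance trend.

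No interruption in MCF-10A was as long as that of NRP2, and the remaining ones were of like size in both lines. ADM, which encodes the peptide hormone adrenomedullin, was 1 peak of 5947 and 5956 bp in MDA-MB-231, against 3 and 4 peaks of 5053 and 5554 bp in all in MCF-10A (chr11:10323684-10330052). Its covered width did not pass the test (log2 ratio 0.17, adjusted p = 0.337), so ADM differed in continuity more than in extent. MGA, a MAX dimerisation partner, was interrupted by 513 and 707 bp in MCF-10A, BRI3 by 607 and 512 bp, the long non-coding RNA CYTOR by 424 and 501 bp, and IFITM3, an interferon-induced membrane protein, by 761 and 388 bp. CYTOR was also wider in MDA-MB-231, with 2271 and 2480 bp, against 1090 and 1362 bp in MCF-10A (log2 ratio 0.96, adjusted p = 0.00274), a call lost with the span (0.50, adjusted p = 0.0508). IFITM3 has highly similar neighbouring genes that can share reads, and the treatment of such reads was not stated in the labels.

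Regions present in one line only numbered 1085 for MDA-MB-231 (6.24% of all merged regions) and 997 for MCF-10A (5.73%). The 5 largest in MDA-MB-231 lay at the starts of EDIL3, AXL, CDH11, PDE10A and FOXA2. EDIL3, a matrix ligand of integrins, covered 3681 and 3489 bp in MDA-MB-231 (chr5:83677818-83681532), and AXL, a receptor tyrosine kinase, covered 3384 and 3692 bp (chr19:41724536-41728342). CDH11, the mesenchymal cadherin, covered 4052 and 3380 bp (chr16:65153995-65158046), PDE10A, a cyclic nucleotide phosphodiesterase, covered 3274 and 3508 bp (chr6:166073752-166077311), and FOXA2, a forkhead factor of endoderm, covered 3213 and 3822 bp (chr20:22562400-22566221). Neither MCF-10A list had a peak in any of these 5 regions.

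The largest regions of MCF-10A alone were wider still. IRX4, an Iroquois homeodomain factor, covered 4931 and 5387 bp in MCF-10A (chr5:1882302-1887890), and GATA3, the luminal breast transcription factor, covered 4650 and 5205 bp (chr10:8095310-8100717). FXYD3, a regulator of the sodium pump, covered 4063 and 4587 bp (chr19:35605977-35610587), and SORCS3, a sorting receptor, covered 3907 and 4074 bp (chr10:106398509-106402666). The last region of this set, at chr17:39671265-39675232 with 3789 and 3968 bp, lay 40 bp from the placed start of KRT15, a basal keratin. The 2 MDA-MB-231 lists had no peak in any of these regions.

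Among epithelial genes the calls and the private regions ran one way, towards MCF-10A, and many genes were not called. Of 22 genes, 15 had a region in all 4 lists, and 8 of these were narrower in MDA-MB-231 and none was wider, against 2.82% and 4.23% over all shared regions. Their median log2 ratio was -0.60, beside 0.04 over all regions. The narrower starts were those of CLDN1, CLDN4, CLDN7, ESRP2, OVOL2, ELF3, SPINT1 and PKP3, which encode claudins, a splicing factor, transcription factors, a protease inhibitor and a desmosomal plakophilin. OVOL2, a repressor of mesenchymal genes, covered 830 and 787 bp in MDA-MB-231, against 2232 and 2379 bp in MCF-10A (log2 ratio -1.51, adjusted p = 0.000325). PKP3 covered 534 and 611 bp in MDA-MB-231, against 1729 and 1917 bp in MCF-10A (log2 ratio -1.67, adjusted p = 0.00106). CLDN4, CLDN7, ESRP2 and SPINT1 had log2 ratios between -1.06 and -0.53. The other 7 shared genes did not pass the test, among them the junction genes OCLN, DSP, JUP, F11R and CLDN3. DSP, a desmosomal plakin, covered 2689 and 2342 bp in MDA-MB-231, against 2441 and 2473 bp in MCF-10A (log2 ratio 0.03, adjusted p = 0.903). CLDN3, a claudin, covered 965 and 1023 bp in MDA-MB-231, against 507 and 799 bp in MCF-10A (log2 ratio 0.64, adjusted p = 0.212). Both MDA-MB-231 H3K27me3 lists had a peak over the OVOL2 region. Neither line had an H3K27me3 peak in both of its lists over the other narrower starts of this group.

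A further 6 epithelial genes had a region in MCF-10A only, and none had one in MDA-MB-231 only, against 5.73% and 6.24% over all merged regions. CDH1, which encodes E-cadherin, had no peak in the MDA-MB-231 lists and 1729 and 1645 bp in MCF-10A. OVOL1, RAB25, ST14, CRB3 and PROM2 shared this pattern, with 1019 to 2104 bp covered in the MCF-10A libraries. MARVELD3 had 513 and 0 bp in MDA-MB-231, against 1759 and 1783 bp in MCF-10A. The epithelial cadherin, a polarity protein (CRB3) and a membrane protease (ST14) were thus without H3K4me3 peaks at their starts in MDA-MB-231.

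Basal genes were mixed. Of 18 starts, 8 had a region in all 4 lists, 4 in MCF-10A only and 6 in none. The share in MCF-10A only was 5.73% over all merged regions. Of the starts without a region, 3 basal, 2 mesenchymal, 2 luminal and 3 HOX starts lay within 1 kb of one, so their state depends on where the start is placed. KRT5, a keratin of basal cells, had no peak in MDA-MB-231 and 1366 and 1721 bp in MCF-10A, and DST, TRIM29 and CDH3 followed it. ITGA3, an integrin subunit for laminin, went the other way and was wider in MDA-MB-231, with 4499 and 4642 bp, against 2314 and 2660 bp in MCF-10A (log2 ratio 0.88, adjusted p = 0.000589). PERP, a desmosomal protein, was narrower (1890 and 1412 bp in MDA-MB-231, 2507 and 2717 bp in MCF-10A; log2 ratio -0.68, adjusted p = 0.0164). LAMB3, a laminin chain, was narrower too, with 680 and 781 bp in MDA-MB-231 and 1539 and 3232 bp in MCF-10A (log2 ratio -1.61, adjusted p = 0.00902), but MCF-10A replicate 2 decided that call, and without it the ratio was -0.50 (adjusted p = 0.377).

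The mesenchymal list did not move in one direction. Of 24 placed genes, 6 had a region in MDA-MB-231 only, 5 in MCF-10A only and 9 in all 4 lists. CDH11, AXL, COL6A1, COL6A2, S100A4 and PDGFRB, which encode a cadherin, receptor kinases, collagen VI chains and a calcium-binding protein, were marked in MDA-MB-231 only. TWIST1, PRRX1, FOXC2, TCF4 and CDH2, which are transcription factors of the epithelial-mesenchymal transition and N-cadherin, were marked in MCF-10A only. TWIST1 had no peak in MDA-MB-231 and 2361 and 2354 bp in MCF-10A. Over all merged regions 6.24% were in MDA-MB-231 only and 5.73% in MCF-10A only.

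Of the 9 mesenchymal genes with a region in all 4 lists, VIM, which encodes the intermediate filament vimentin, was wider in MDA-MB-231. It covered 3280 and 3207 bp in MDA-MB-231, against 1510 and 1776 bp in MCF-10A (chr10:17270128-17273503; log2 ratio 0.99, adjusted p = 0.000589), and both MCF-10A H3K27me3 lists had a peak over it. The MCF-10A peaks at VIM began downstream of the placed start (upstream reach -939 and -963 bp) and did not touch it. FN1, which encodes fibronectin, covered 1707 and 2165 bp in MDA-MB-231, against 356 and 1329 bp in MCF-10A, where the replicates were far apart (log2 ratio 1.48, adjusted p = 0.0944). FOXC1, a forkhead factor, was narrower, with 3938 and 3557 bp in MDA-MB-231 and 4885 and 5582 bp in MCF-10A (log2 ratio -0.48, adjusted p = 0.0168), a call lost without MDA-MB-231 replicate 2 (-0.41, adjusted p = 0.0577). ZEB1, which represses epithelial genes, covered 2900 and 2925 bp in MDA-MB-231 and 2555 and 2829 bp in MCF-10A (log2 ratio 0.12, adjusted p = 0.526).

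Few genes of luminal cells were called. Of 16 genes, 8 were marked in all 4 lists, and 2 of these, FOXA1 and TFAP2A, were narrower in MDA-MB-231 and none was wider, against 2.82% and 4.23% over all shared regions. There was 1 start marked in MDA-MB-231 only and 2 in MCF-10A only, beside 6.24% and 5.73% over all merged regions. These counts are too small to read a direction from. FOXA1, a pioneer factor for the estrogen receptor, covered 1157 and 845 bp in MDA-MB-231, against 2271 and 2758 bp in MCF-10A (log2 ratio -1.34, adjusted p = 0.0016). ESR1, the estrogen receptor gene, had no peak in MDA-MB-231 and 1197 and 1558 bp in MCF-10A, and GATA3 was also marked in MCF-10A only. KRT19, a keratin of luminal cells, was marked in MDA-MB-231 only, with 2048 and 1947 bp.

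Several genes of invasion and secreted signals were wider in MDA-MB-231. Of 22 genes, 14 were marked in all 4 lists, and 5 of these were wider in MDA-MB-231 and none was narrower, against 4.23% and 2.82% over all shared regions. Their median log2 ratio was 0.31, beside 0.04 over all regions. Among 18 promoters active in most cells, 3 were wider and none was narrower. CYR61, a matricellular protein, covered 4136 and 3876 bp in MDA-MB-231, against 1483 and 1523 bp in MCF-10A (log2 ratio 1.41, adjusted p = 3.68e-05). EGFR, the EGF receptor, covered 3552 and 3379 bp in MDA-MB-231, against 2401 and 2307 bp in MCF-10A (log2 ratio 0.56, adjusted p = 0.00446). The widths of these 2 genes were close between replicates and, as in every called region, did not overlap between the lines. PLAU, the urokinase protease, covered 2219 and 1803 bp in MDA-MB-231, against 1158 and 1158 bp in MCF-10A (log2 ratio 0.79, adjusted p = 0.0101). CD44, a hyaluronan receptor, and TGFB2, a TGF-beta ligand, were wider by smaller steps (log2 ratios of 0.51 and 0.39, adjusted p = 0.0282 and 0.0401). Each of these 2 calls was lost when either of 2 libraries was left out, with the ratio still positive. The CD44 call was lost without MDA-MB-231 replicate 1 (0.41, adjusted p = 0.0559) or MCF-10A replicate 2 (0.39, adjusted p = 0.0617). The TGFB2 call was lost without MDA-MB-231 replicate 1 (0.30, adjusted p = 0.118) or MCF-10A replicate 1 (0.31, adjusted p = 0.102).

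The cytokine gene IL6 was marked in MDA-MB-231 only, with 1321 and 1352 bp. MMP2, a matrix metalloproteinase, and the cytokine gene LIF were marked in MCF-10A only, with 756 and 581 bp and 1626 and 1479 bp. The list thus held starts private to each line, while its width calls ran one way.

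HOX genes, the homeodomain factors of body position, were mostly unmarked or marked in MCF-10A. Of 39 starts, 22 had no region, 11 had one in MCF-10A only, and HOXD1 had one in MDA-MB-231 only, with 2421 and 2118 bp. Over all merged regions 6.24% were in MDA-MB-231 only and 5.73% in MCF-10A only. HOXB9 covered 1870 and 1992 bp in MDA-MB-231, against 0 and 992 bp in MCF-10A. In the HOXA cluster, HOXA2, HOXA4, HOXA5, HOXA7, HOXA9 and HOXA10 had no peak in MDA-MB-231 and between 1097 and 2285 bp in the MCF-10A libraries. In the HOXC cluster the same held for HOXC8, HOXC9, HOXC11 and HOXC13. The starts of HOXC4 and HOXC6 shared 1 region, which covered 594 and 621 bp in MDA-MB-231, against 1518 and 1857 bp in MCF-10A (log2 ratio -1.47, adjusted p = 0.00231). Neighbouring HOX starts are not independent, since one stretch of chromatin can carry several of them.

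Growth control genes and promoters active in most cells served as comparison. Of 18 growth control genes, 16 were marked in all 4 lists with a median log2 ratio of 0.08. CCND1, the cyclin D1 gene, was wider (4250 and 4081 bp in MDA-MB-231, 2874 and 2976 bp in MCF-10A; log2 ratio 0.51, adjusted p = 0.00564). MDM2, which targets p53 for degradation, was narrower (1622 and 1779 bp in MDA-MB-231, 2512 and 2302 bp in MCF-10A; log2 ratio -0.50, adjusted p = 0.0202), a call lost without MCF-10A replicate 1 (-0.44, adjusted p = 0.102). CDKN2A and CDKN2B, neighbouring inhibitors of cyclin-dependent kinases, had no region in any list. The nearest region lay 125054 bp from CDKN2A and 159234 bp from CDKN2B. A peak list cannot tell an unmarked start from an absent locus, and copy number was not measured here. All 18 promoters active in most cells were marked in all 4 lists with a median log2 ratio of 0.10, and ACTB, SDHA and EEF1A1 were wider in MDA-MB-231 (log2 ratios of 0.54, 0.55 and 0.68, adjusted p = 0.0085, 0.0364 and 0.00211). The SDHA call was lost without MDA-MB-231 replicate 1 (0.36, adjusted p = 0.112) or MCF-10A replicate 1 (0.45, adjusted p = 0.0856). These 3 of 18 wider promoters stand against 4.23% over all shared regions, so wider calls were not limited to genes tied to a cell type.

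The smaller steps among these lists depended on the variance model. Without the trend, the calls of CLDN4, CLDN7, ESRP2, LAMB3, PERP, FOXC1, PLAU, CD44, EGFR, TGFB2, CCND1, MDM2, ACTB, SDHA and EEF1A1 were lost, with adjusted p between 0.0515 and 0.202, and those of CLDN1, OVOL2, ELF3, SPINT1, PKP3, ITGA3, VIM, FOXA1, TFAP2A, CYR61 and the HOXC4 and HOXC6 region were kept. With the span in place of covered bases, ESRP2, PERP, TGFB2 and SDHA were lost (adjusted p = 0.0579, 0.086, 0.0946 and 0.0502). With only peaks scoring at least 100, LAMB3, CD44 and SDHA were lost (adjusted p = 0.146, 0.0533 and 0.0675). CD44 was lost with centring within chromosomes (adjusted p = 0.0989) and TGFB2 with peaks within 500 bp joined (adjusted p = 0.0513).

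**Figure D4:**
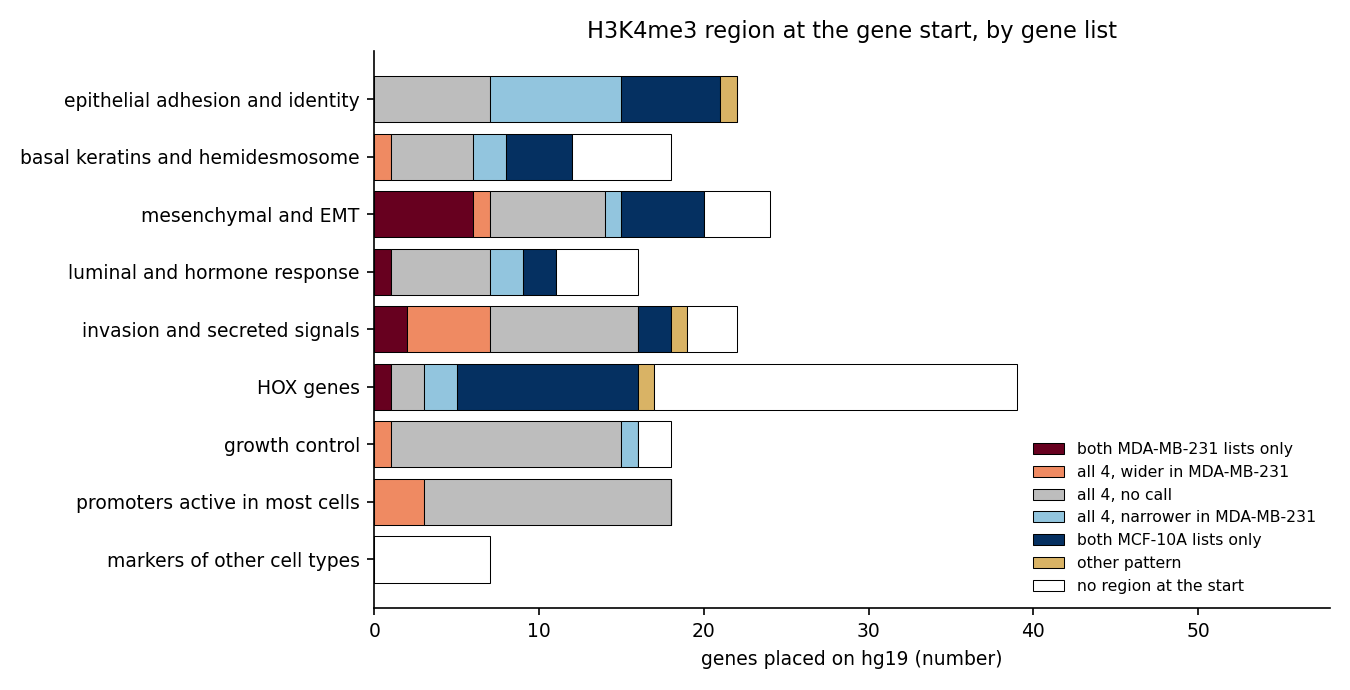
Number of genes per list by the state of the H3K4me3 region at their start: in both MDA-MB-231 lists only, in all 4 lists and wider, not called or narrower in MDA-MB-231, in both MCF-10A lists only, another pattern, or none. The epithelial bar has narrower and MCF-10A regions and no MDA-MB-231 region, the mesenchymal bar has both kinds, and the HOX bar is mostly without a region or MCF-10A only.

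H3K27me3, which the width classes did not use, lay differently on the 3 classes. Regions wider in MDA-MB-231 had an H3K27me3 peak in both MDA-MB-231 lists at 1 of 506 (0.198%) and in both MCF-10A lists at 64 of 506 (12.6%, exact 95% interval 9.88% to 15.9%). Regions narrower in MDA-MB-231 had one in both MDA-MB-231 lists at 19 of 337 (5.64%, 3.43% to 8.66%) and in both MCF-10A lists at 6 of 337 (1.78%). The other 11124 shared regions had one in both MDA-MB-231 lists at 0.279% and in both MCF-10A lists at 1.44%. In each line the H3K27me3 share was highest at the class whose H3K4me3 domain was the shorter one in that line. H3K9me2, a further repressive mark, followed this order in MDA-MB-231, on few regions, and did not follow it in MCF-10A. At wider regions it had a peak in both MDA-MB-231 lists at 0 of 506 (exact upper bound 0.726%) and in both MCF-10A lists at 0.593%, against 0.162% and 1.54% at the other shared regions. At narrower regions it had one in both MDA-MB-231 lists at 3 of 337 (0.890%) and in both MCF-10A lists at 3.26%. The wider and narrower regions were also longer, with median merged lengths of 2369.5 and 2157 bp, against 1746 bp for the others, and a longer region can meet a peak more often.

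The H3K27me3 order held library by library. The MDA-MB-231 H3K27me3 lists were unequal, with 8408 and 30238 autosomal peaks, against 28393 and 28371 in MCF-10A. At the narrower regions MDA-MB-231 replicate 1 had a peak in 6.82% and replicate 2 in 13.4%, against 0.458% and 0.998% at the other shared regions. At the wider regions MCF-10A replicate 1 had a peak in 15.02% and replicate 2 in 15.2%, against 2.20% and 1.83% at the other shared regions. The share of 5.64% above is therefore set by the shorter MDA-MB-231 list, and replicate 2 alone gave the same order. Intervals cover counting error only, and regions are not replicates.

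**Figure D5:**
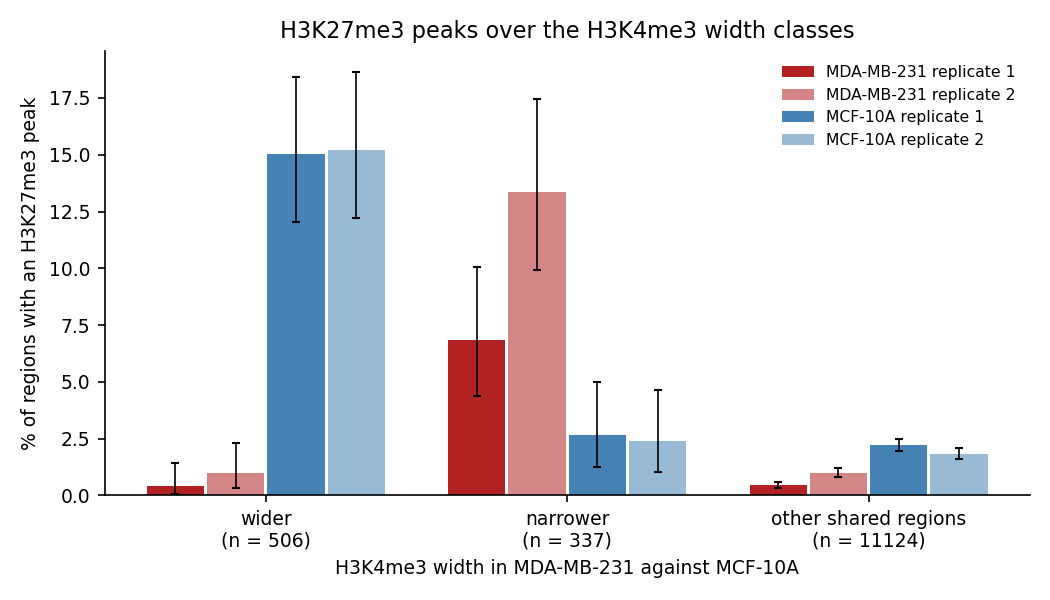
Percentage of H3K4me3 regions with an H3K27me3 peak, by library, for regions wider in MDA-MB-231 (506), narrower in MDA-MB-231 (337) and other shared regions (11124); error bars are exact 95% intervals for counting error. MCF-10A bars are highest at the wider regions and MDA-MB-231 bars at the narrower ones.

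Chromosomes differed in their typical ratio. The median log2 ratio was highest on chromosome 20 (0.15), where 8.41% of shared regions were wider in MDA-MB-231 and 2.59% narrower, and lowest on chromosome 16 (-0.13), where 1.44% were wider and 3.42% narrower. With widths centred within each chromosome, 17 wider regions were called on chromosome 20 in place of 26, and 12 on chromosome 16 in place of 8. Copy number, which differs by chromosome between tumour lines, was not measured here, and its part in the widths was not tested. With that centring 766 of the 843 called regions were still called in the same direction.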

How the data were processed

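ChIP-seq libraries of 2 established human breast lines were compared. Per the labels' protocols, cells were harvested before confluence and sequencing was paired-end. CASAVA 1.6, MACS 1.4, Bowtie2 and bedtools, with the build hg19, are listed in the submitters' processing notes without roles or settings. Each deposited list belongs to 1 replicate, per the labels, and gives chromosome, start, end, name and a score per peak. The deposited score is the authors' own value on an unstated scale; it served only to filter or rank peaks within a list. Other values are positions in bp. The lists hold no counts, so depth is unknown and precision rests on 2 libraries per line.

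Autosomal peaks were merged at an overlap of 1 bp. Width is the number of bases a library covers in a region. Log2 width was tested with limma 3.58.1 (empirical Bayes with trend, two-sided, R 4.3.3) over all 11967 shared regions, with Benjamini-Hochberg adjusted p under 0.05, and this test was tested on simulated data. Python 3.11.15, NumPy 2.4.6, SciPy 1.17.1, pandas 2.3.3 and matplotlib 3.10.9 did the rest. Coordinates are hg19, counted from 1, unless GRCh38.p14 is named.

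No hg19 annotation was used here. Starts of 226 genes were placed by hand from general knowledge of hg19 and can differ from an annotation; all 226 symbols stood on the same chromosome in RefSeq GRCh38.p14, and 203 of 204 neighbouring pairs were in the same order. Sequences come from that RefSeq table, whose gene start can differ from the one placed here. The 10 widest gaps per direction, the 5 longest splits and the 5 largest regions per line were named, together with called or private genes of the lists; some of these are not reported here. The members, lists and tests were chosen with earlier results of these data known, and genes at the named regions were looked up after the regions were seen, so no list count is independent support.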

Additional observations from a re-analysis of the deposited data

How the results depend on the processing

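Width calls depended on the variance model and the peak threshold. Without the trend there were 236 wider and 202 narrower regions in MDA-MB-231, and 395 of the 843 called regions were still called. With a score of at least 100 there were 317 wider and 220 narrower regions, and 132 regions were split in MDA-MB-231. Leaving out one library at a time gave 473 to 844 wider and 235 to 510 narrower regions, 267 to 597 splits in MDA-MB-231 and 232 to 513 in MCF-10A. A split then needs 1 list of the reduced line, and its lone sample is assumed to vary like the other line. The median log2 ratio stayed between 0.00 and 0.07 in every setting. Of 715 values of 54 named regions under the alternatives, added after seeing the data, 673 kept direction and call, 42 lost the call and 0 turned round; 17 of the losses came without the trend and 8 with the span. Centring each library gave 533 wider and 456 narrower regions, so the share of wider calls went to 53.9%, beside 60.0% as reported. The replicate numbers did not pair the samples (the difference between replicates 1 and 2 had a correlation of 0.03 between the lines). The replicate block gave 561 wider and 363 narrower regions, with 817 of the 843 still called. For the other results the cause of the change was not tested. With 2 libraries per line and unknown depth, small changes in width cannot be resolved.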

Other observations

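The regions next in rank by the gap between the lines held further developmental and signalling genes, chosen here after their values were seen. F3, which encodes tissue factor, covered 5032 and 5070 bp in MDA-MB-231, against 2112 and 2599 bp in MCF-10A (log2 ratio 1.11, limma adjusted p = 0.000308). DUSP5, a phosphatase of ERK, covered 4591 and 5107 bp in MDA-MB-231, against 2256 and 2446 bp in MCF-10A (log2 ratio 1.04, adjusted p = 0.000196). At both starts the 2 MDA-MB-231 libraries lay above the 2 MCF-10A libraries, which the ranking by that gap required. BMP4, a secreted ligand of the TGF-beta family, had a log2 ratio of 1.10 (adjusted p = 0.000275), and NR2F2, a nuclear receptor, one of 0.68 (adjusted p = 0.00167). SLIT2, an axon guidance ligand, had one of 1.16 (adjusted p = 0.000121), and both MCF-10A H3K27me3 lists had a peak over its region. The MCF-10A peaks did not touch the placed start at BMP4 (upstream reach -2285 and -2137 bp) or at SLIT2 (downstream reach -154 and -3 bp).

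Among the regions of MDA-MB-231 alone, the next in size included the starts of COL5A1, a fibrillar collagen chain, with 2907 and 3004 bp, and of FEZF1, a zinc finger factor of the forebrain, with 2782 and 2900 bp. Neither MCF-10A list had a peak in these 2 regions.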
